A study of Mus musculus with 12 samples.

Results

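The Bcl-2 family members that act at mitochondria and at the endoplasmic reticulum (ER) were followed as 9 mRNAs in mouse embryonic stem cells: Bcl2, Bcl2l1, Bcl2l2, Mcl1, Bak1, Bok, Bid, Bnip3 and Bnip3l. They were taken by name, with the Ensembl gene ID matched to the mouse symbol, and are 9 of the 55416 gene IDs in the count tables. The cells were of the E14Tg2a.4 line, grown with serum and leukemia inhibitory factor, and in all of them the ribosomal protein Rpl31 carried the FTA tag (FLAG, a TEV protease site and AviTag). ALIBi, a proximity biotinylation system delivered on plasmids as an N- and a C-terminal fragment, labelled tagged ribosomes at the ER; these were affinity-purified and their mRNA was sequenced as ER-bound RNA. Whole-cell RNA came from lysate set aside ahead of the purification. The siRNA was either a scramble control or one against Lsg1, a GTPase of cytoplasmic 60S subunit maturation, which gives 4 groups of 3 biological replicates: cells with scramble siRNA gave ER-bound and whole-cell RNA, and cells with Lsg1 siRNA gave the same pair of fractions.

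Proteins of the Bcl-2 family decide at the outer mitochondrial membrane whether a cell enters apoptosis. Prosurvival members hold back the effectors that perforate this membrane, and BH3-only proteins relieve that block or activate the effectors directly; several members also sit in the ER membrane, where they act on calcium release. Bnip3 and Bnip3l, more distant relatives with a BH3-like motif, are receptors that mark mitochondria for mitophagy. Many members are tail-anchored: their single membrane-spanning segment lies so close to the C-terminus that it leaves the ribosome only once translation ends, so that such proteins are inserted after synthesis, unlike secretory proteins, which are delivered to the ER while being made.

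The tails of the proteins were read from the GENCODE M21 coding sequences (GRCm38, transcript strand), and 8 of the 9 members had this layout. With the mean Kyte-Doolittle hydropathy over windows of 19 residues, a window of at least 1.6 was counted as hydrophobic; such windows lay only in the last 40 residues of Bcl2, Bcl2l1, Bcl2l2, Mcl1, Bak1, Bok, Bnip3 and Bnip3l. Bak1 had the highest value, 2.45, with 6 residues after the window; Bcl2l2 reached 2.12 with 2 residues after it, and Bnip3l 1.87 with 12. Bid, which has no such tail, peaked at 1.16. At a threshold of 1.8, Bcl2l1 and Bok, both at 1.68, would count as having no hydrophobic window. The 3' ends of 5 coding sequences are given, those of the members called between ER-bound and whole-cell RNA with both siRNAs. Bak1 and Bid were called higher, and Bcl2l2, Bnip3 and Bnip3l lower. In the same fit Mcl1 was called lower with scramble siRNA only. The calls of Bak1 and Bid ended when trends with GC content and length were offset. Capitals mark the codons of the most hydrophobic window, and each sequence ends with the stop codon.
Bak1: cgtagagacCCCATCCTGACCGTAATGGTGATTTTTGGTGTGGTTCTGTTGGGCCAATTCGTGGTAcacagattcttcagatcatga
Bcl2l2: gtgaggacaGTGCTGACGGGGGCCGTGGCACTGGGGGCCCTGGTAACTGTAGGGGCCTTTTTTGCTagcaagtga
Bnip3: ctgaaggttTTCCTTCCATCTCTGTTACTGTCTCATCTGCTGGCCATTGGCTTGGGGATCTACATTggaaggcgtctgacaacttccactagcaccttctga
Bnip3l: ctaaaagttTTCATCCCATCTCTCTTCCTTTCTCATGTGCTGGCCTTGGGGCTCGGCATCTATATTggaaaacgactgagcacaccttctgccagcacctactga
Bid: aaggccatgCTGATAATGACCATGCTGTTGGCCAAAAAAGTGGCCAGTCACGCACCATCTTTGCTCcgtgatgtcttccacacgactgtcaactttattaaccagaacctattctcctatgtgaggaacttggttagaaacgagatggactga
Bnip3 and Bnip3l were the most alike pair, with 63.1% of the residues of the shorter protein identical in a pairwise alignment. Bcl2l1 and Bcl2l2 shared 49.7%, Bcl2 and Bcl2l2 46.6%, and Bcl2 and Bcl2l1 44.2%.

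**Figure D1:**
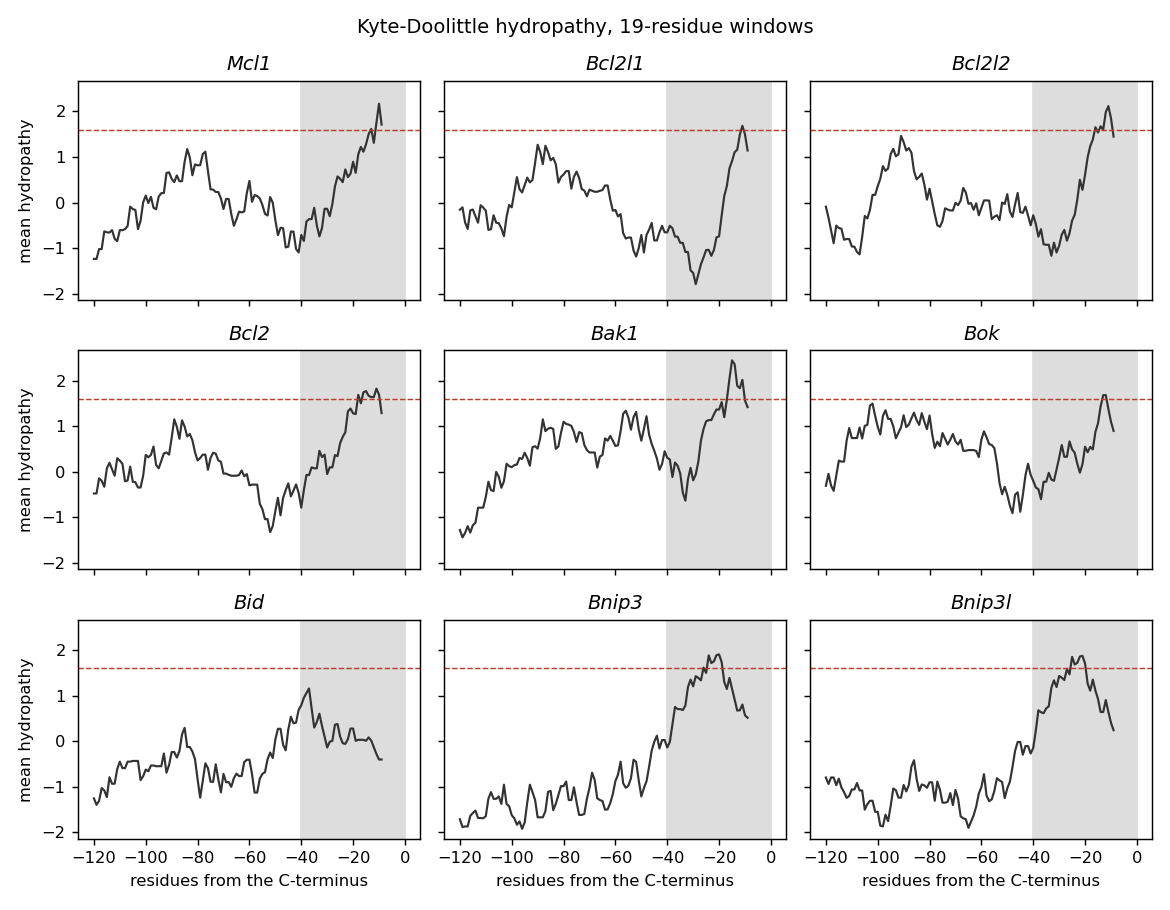
Mean Kyte-Doolittle hydropathy of windows of 19 residues (y axis) against the distance of the window's centre from the C-terminus in residues (x axis), for the 9 members. The grey band is the last 40 residues and the dashed line the threshold of 1.6; every profile except that of Bid rises to the line inside the band.

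Each library held 38092178 to 56522114 reads assigned to genes, and all 9 members passed the filter on low counts that left 17702 genes. All 10 pluripotent stem cell markers were detected, and the 10 markers of the ER lumen and membrane were all higher in ER-bound RNA, with a median log2 fold of 0.93 with scramble siRNA. Being higher was not particular to ER markers: of the pluripotent stem cell markers, 9 were higher and 1 lower there, with a median of 0.21. Of all 17702 genes, 29.8% were higher and 29.1% lower in that comparison. Fibroblast or feeder markers (8 genes) summed to 47.9 to 58.3 CPM (counts scaled to a common library size, with TMM factors) in ER-bound libraries and to 27.1 to 30.0 CPM in whole-cell libraries, most of it Thy1, while Lum had no read in any group; their part in the results was not tested. Primitive endoderm markers (7 genes) summed to 10.8 to 12.2 CPM in all groups. Lsg1 stood at 29.4% of its scramble level in ER-bound RNA (log2 fold -1.77 with SE 0.11, edgeR adjusted p = 6.28e-08) and at 68.5% in whole-cell RNA (-0.55, SE 0.10, edgeR adjusted p = 0.245). The gene ENSMUSG00000119584.1, which has no name here, stood at 18469 CPM in replicate 3 of the ER-bound scramble group and at 15604 CPM in replicate 3 of the whole-cell Lsg1 group; the other 10 libraries held 1115 to 4143 CPM. Results were also taken without this pair of libraries.

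The levels of the 9 mRNAs spanned a wide range. In whole-cell RNA with scramble siRNA, their order was the same whether counts were divided by transcript length or by coding length. In ER-bound RNA with Lsg1 siRNA, Bnip3 lay above Bak1 per kilobase of transcript (means 66.1 and 57.8 CPM). Per kilobase of coding sequence, Bnip3 read 227, 201 and 190 CPM there and Bak1 221, 218 and 218 CPM. Mcl1, a short-lived prosurvival protein that early embryos depend on, was the most abundant, at 192 ± 3.71 CPM per kilobase of the longest transcript in whole-cell RNA with scramble siRNA (SD, n = 3). The mitophagy receptor Bnip3 followed at 90.0 ± 0.939 CPM per kilobase and Bak1, an effector, at 45.8 ± 0.751. Bnip3l stood at 32.1 ± 0.341 CPM per kilobase. Bid, which caspase-8 cleaves into its active form, stood at 21.7 ± 0.741, close to the prosurvival Bcl2l1 (Bcl-xL) at 19.8 ± 0.935 and to Bok, an effector-like member known from the ER, at 15.9 ± 0.859. The prosurvival Bcl2l2 (Bcl-w) stood at 4.59 ± 0.243 CPM per kilobase. Bcl2, the founding prosurvival member, came last at 0.131 ± 0.0063, with only 32 to 68 reads in any library. The libraries of neighbours in this order did not overlap, and the narrowest gap was that between Bid and Bcl2l1.

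**Figure D2:**
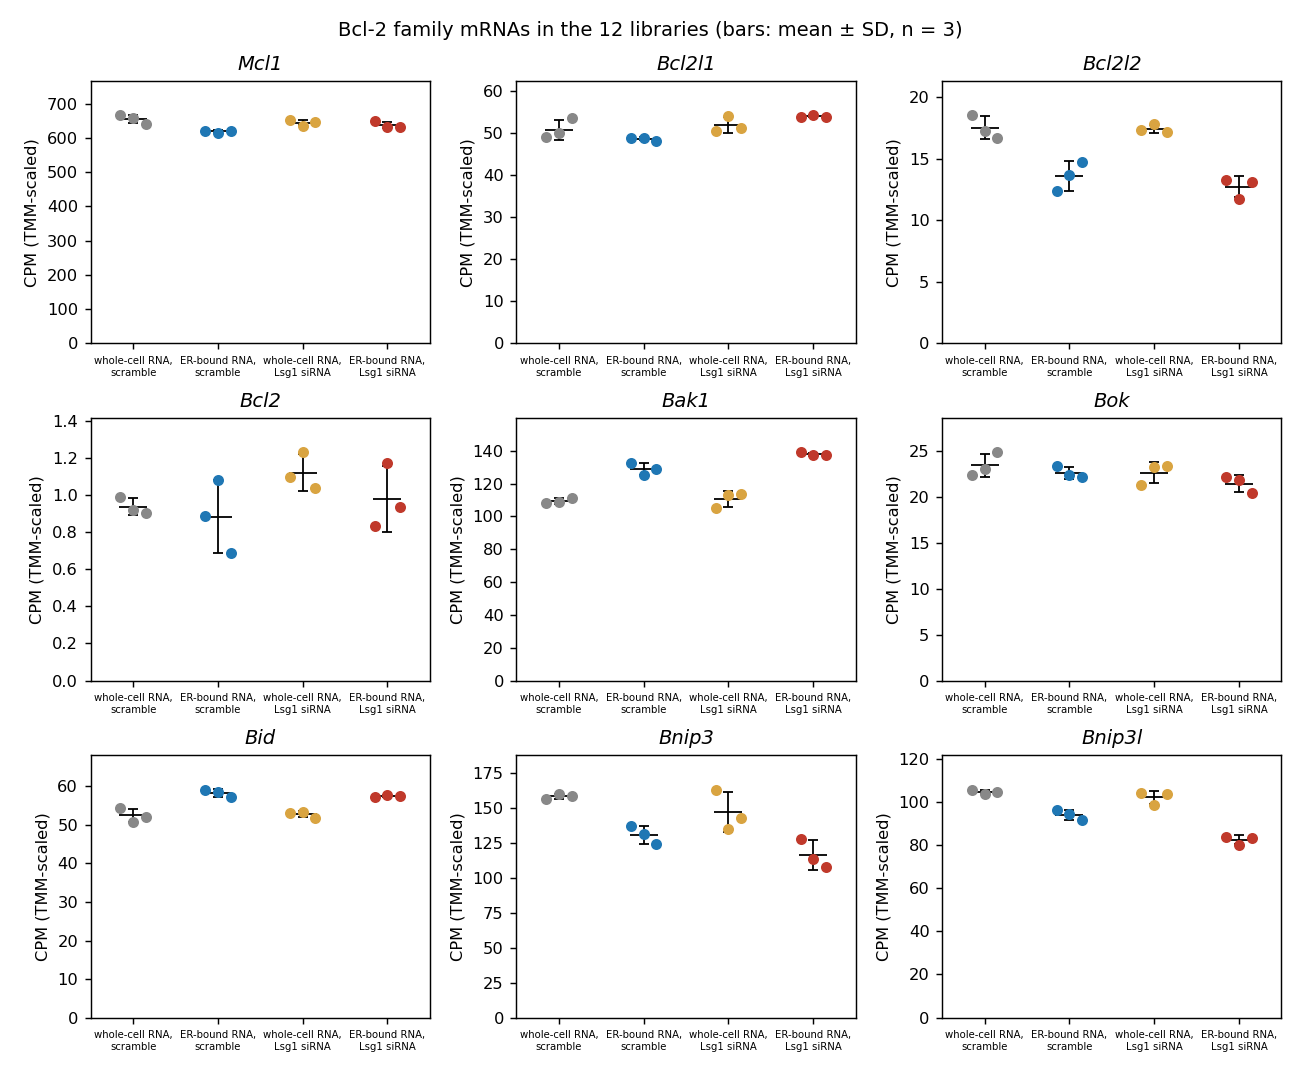
TMM-scaled CPM (y axis, linear, from 0) of each member in the 12 libraries, grouped by RNA fraction and siRNA on the x axis; points are libraries, and bars give the mean ± SD of 3. Bak1 and Bid lie higher in ER-bound than in whole-cell RNA with either siRNA, and Bcl2l2, Bnip3 and Bnip3l lie lower; with the GC and length offset Bak1 and Bid did not pass.

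Which members' mRNAs were carried more or less by ER-labelled ribosomes was asked first in cells with scramble siRNA, by setting ER-bound beside whole-cell RNA. The mRNAs stayed close to their whole-cell levels: the log2 folds ran from -0.36 for Bcl2l2 to 0.24 for Bak1, against a median of 0.93 for the ER markers. Bak1 and Bid were higher, Bcl2l2, Bnip3, Bnip3l and Mcl1 were lower, and Bcl2, Bcl2l1 and Bok did not pass; the calls of Bak1 and Bid ended when trends with GC content and length were offset. So 2 members were higher and 4 lower in the edgeR quasi-likelihood fit, with p-values adjusted by Benjamini-Hochberg over all 17702 genes, of which 29.8% were higher and 29.1% lower. With 9 members, 2 higher and 4 lower are near these shares. With the GC and length offset 0 were higher and 6 lower, and the shares of all genes called there are not given here. By edgeR's quasi-likelihood test, 10772 of 17702 genes then had an unadjusted p under 0.05, against 10978 without the offset. The median log2 fold was then -0.15 for the members and -0.03 over all genes. Without the offset, the members' median log2 fold was -0.07, against 0.03 over all genes tested. The 10th to 90th percentile of all genes ran from -0.56 to 0.69. No library held the RNA of all ribosomes, so overall translation and location at the ER cannot be told apart here, nor can fewer cells with an mRNA and less of it per cell.

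Among the prosurvival members, Bcl2l2 had the largest difference. Its ER-bound libraries read 12.4, 13.7 and 14.7 CPM and its whole-cell libraries 18.5, 17.3 and 16.7 CPM with scramble siRNA. The groups did not overlap, with a fold on the log2 scale of -0.36 (SE 0.06, edgeR adjusted p = 9.09e-05). Mcl1 read 621, 614 and 621 CPM in ER-bound RNA and 666, 658 and 641 CPM in whole-cell RNA, again without overlap. Its difference was small, with a log2 fold of -0.08 with an SE of 0.02 (edgeR adjusted p = 0.0068), and with no filter on low counts it did not pass (-0.07, edgeR adjusted p = 0.148). Bcl2l1 had a log2 fold of -0.06 (95% interval -0.14 to 0.02, edgeR adjusted p = 0.156); without whole-cell scramble replicate 1 it passed as lower (-0.11, edgeR adjusted p = 0.0335). Bcl2 had one of -0.07, and at its read depth the 95% interval ran from -0.46 to 0.32.

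In the fit without the GC and length offset, the effectors Bak1 and Bok and the BH3-only member Bid differed in the other direction or not detectably. With the offset, Bak1 (-0.01) and Bid (-0.04) did not pass, and Bok passed as lower (-0.35). The values that follow are without it. Bak1 read 133, 125 and 129 CPM on ER-labelled ribosomes against 108, 109 and 111 CPM in whole-cell RNA. Every ER-bound library lay above every whole-cell library, and the log2 fold was 0.24 with an SE of 0.03 (edgeR adjusted p = 1.08e-05). Bid read 59.2, 58.6 and 57.2 CPM against 54.4, 50.9 and 52.1 CPM. These groups did not overlap either, with a log2 fold of 0.15 with an SE of 0.03 (edgeR adjusted p = 6.47e-04). Bok had overlapping groups and a log2 fold of -0.05 (95% interval -0.16 to 0.05, edgeR adjusted p = 0.398).

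Both mitophagy receptors were lower in ER-bound RNA. Bnip3 read 137, 131 and 124 CPM against 156, 160 and 158 CPM in whole-cell RNA. The groups did not overlap, and the log2 fold was -0.27 with an SE of 0.06 (edgeR adjusted p = 0.00105). Bnip3l read 96.2, 94.3 and 91.4 CPM against 106, 104 and 104 CPM. Here too the groups were apart, with a log2 fold of -0.15 with an SE of 0.03 (edgeR adjusted p = 7.16e-04).

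With Lsg1 siRNA, the same comparison rested on the other 6 libraries. Bak1 read 139, 138 and 137 CPM in ER-bound RNA and 105, 113 and 114 CPM in whole-cell RNA, a log2 fold of 0.32 with an SE of 0.03 (edgeR adjusted p = 2.75e-07). Bid had a log2 fold of 0.12 (edgeR adjusted p = 0.0034). Bcl2l2 read 13.3, 11.8 and 13.1 CPM against 17.3, 17.8 and 17.2 CPM, a log2 fold of -0.45 with an SE of 0.07 (edgeR adjusted p = 8.86e-06). Groups did not overlap for any of these, and the directions were those seen with scramble siRNA. Bnip3 read 128, 113 and 107 CPM against 163, 135 and 143 CPM, a log2 fold of -0.34 with an SE of 0.06 (edgeR adjusted p = 1.45e-04). Bnip3l read 83.9, 80.1 and 83.3 CPM against 104, 98.4 and 104 CPM, a log2 fold of -0.31 with an SE of 0.03 (edgeR adjusted p = 3.11e-07). Thus 2 members were higher and 3 lower, where 30.6% of all genes were higher and 29.8% lower, and Mcl1 (-0.02, edgeR adjusted p = 0.583), Bcl2l1 (0.06), Bok (-0.08) and Bcl2 (-0.20) did not pass. Without whole-cell Lsg1 replicate 1, Bok passed as lower (-0.15, edgeR adjusted p = 0.0314). The members' median was -0.08, against 0.02 over all genes.

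**Figure D3:**
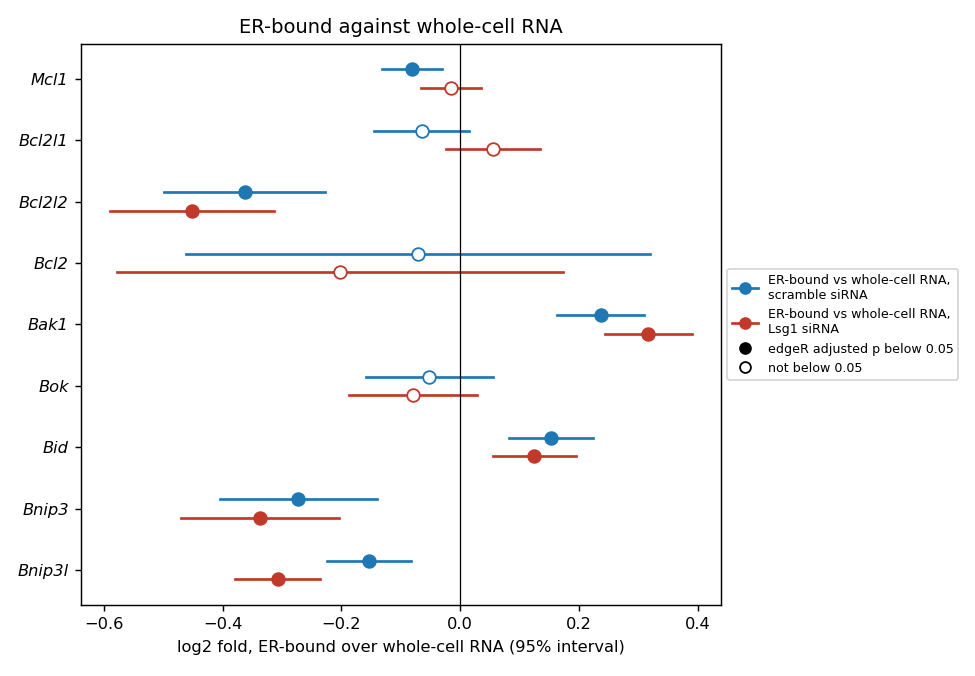
Log2 fold of ER-bound over whole-cell RNA (x axis) with its 95% interval for each member, with scramble siRNA (blue) and Lsg1 siRNA (red); filled points have an edgeR adjusted p below 0.05. Bak1 and Bid are filled and above 0 with both siRNAs, and Bcl2l2, Bnip3 and Bnip3l filled and below 0; the calls of Bak1 and Bid ended with the GC and length offset.

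Scaling and composition bear on these directions. The members' transcripts had a GC content of 41.6% (Bnip3) to 61.0% (Bok), with Bak1 at 57.1% and Bid at 51.3%. Once trends with transcript length and GC content were offset, Bak1 and Bid no longer passed: Bak1 came to -0.01 with scramble and 0.05 with Lsg1 siRNA (edgeR adjusted p = 0.743 and 0.198), and Bid to -0.04 and -0.07 (0.361 and 0.0861). Bok (-0.35 and -0.36) and Bcl2l1 (-0.30 and -0.19) then passed as lower with both siRNAs, and Mcl1 passed as lower with Lsg1 siRNA as well (-0.09, edgeR adjusted p = 0.0036). With library totals alone, which moved the median of all genes to 0.11, Mcl1 (-0.0042, edgeR adjusted p = 0.903) and Bnip3l (-0.08, 0.0878) no longer passed with scramble siRNA, and Bcl2l1 (0.14) and Mcl1 (0.07) passed as higher with Lsg1 siRNA. Bcl2l2 and Bnip3 were called lower with both siRNAs in all 24 alternatives, with log2 folds of -0.57 to -0.29 and of -0.42 to -0.19. Without the pair of libraries that stood apart, Bid did not pass with Lsg1 siRNA (0.09, edgeR adjusted p = 0.0724). Annotated exons of Bak1 overlap Ggnbp1 on the opposite strand over 25.5% of their bases, those of Bnip3 overlap Gm45507 over 22.3% and those of Bid overlap Bcl2l13 over 17.7%, while Bcl2l2 shares 13.3% with Gm20521 on its own strand. Whether counting used strand is not given in the sources used here. Ggnbp1, Gm45507 and Gm20521 stood at group means of 1.29 to 1.77, 0.0669 to 0.104 and 0.295 to 0.449 CPM, and Bcl2l13 at 62.9 to 72.6 CPM.

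Among the tested genes with a complete coding sequence in GENCODE M21, the position of a hydrophobic window went with the ER-bound over whole-cell fold. Tested genes without such a sequence were put in no class. For the 4904 genes whose protein had such a window outside the last 40 residues, the median log2 fold was 0.33 with scramble siRNA and 52.6% were higher. For the 210 genes with windows in the tail only, which include 8 members, the median was 0.14 and 45.7% were higher. For the 9490 genes with no window, Bid among them, the median was -0.05 and 23.9% were higher. Of the 8 members in the tail-only class, Bak1 alone was called higher with scramble siRNA, a call that ended with the GC and length offset. Bcl2l2, Mcl1, Bnip3 and Bnip3l were called lower, as were 22.9% of the genes of this class. The medians and shares of the classes are from the fit without the offset. With Lsg1 siRNA the medians were 0.38, 0.13 and -0.06. These are descriptions over genes, and no test of the classes was made.

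**Figure D4:**
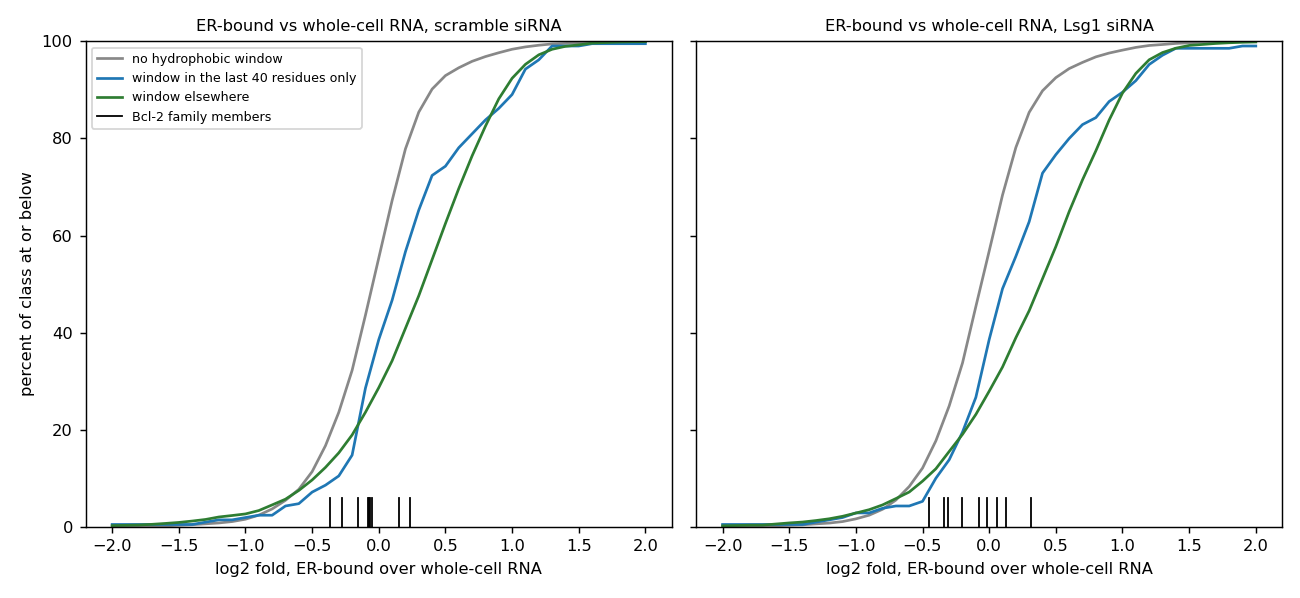
Cumulative percent of genes (y axis) at or below each log2 fold of ER-bound over whole-cell RNA (x axis), by the position of hydrophobic windows in the protein; the left panel is scramble and the right panel Lsg1 siRNA, and black ticks mark the 9 members. At mid-height the curve of genes with a window outside the tail lies furthest right, at a median of 0.33 with scramble siRNA, and the members lie between -0.36 and 0.24 there.

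The family's other genes gave wider folds in the fit without the GC and length offset. Of 16 listed, 12 were tested, and with scramble siRNA 6 were higher in ER-bound RNA and 4 lower, with a median of 0.16. Over all genes tested, 29.8% were higher and 29.1% lower. Bax, the effector that works beside Bak1, stood at 325 ± 10.4 CPM on ER-labelled ribosomes and at 206 ± 5.78 CPM in the whole cell (SD, n = 3), a log2 fold of 0.66. The BH3-only genes Pmaip1 (Noxa, 0.83), Bbc3 (Puma, 0.66) and Bad (0.22) were higher, as were Bcl2l10 (1.06, with 18 to 64 reads a library) and Bcl2l12 (0.15). Hrk (-1.04), Bcl2l11 (Bim, -0.30), Bmf (-0.21) and Bcl2l13 (-0.17), which is itself described as a mitophagy receptor, were lower. Bik, a BH3-only protein of the ER membrane (0.16), and Bcl2l14 (0.13) did not pass. With the same test and Lsg1 siRNA, 7 were higher and 3 lower, against 30.6% and 29.8% of all genes. Bcl2a1a, Bcl2a1b, Bcl2a1d and Bcl2l15 had at most 4 reads in any library and were not tested.

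Genes of the proteins around the family differed in both directions with scramble siRNA. Their folds are from the fit without the GC and length offset. Of all 17702 genes, 29.8% were higher and 29.1% lower in that fit, so calls in both directions were common. Of 9 ER partners, 5 were higher and 2 lower, with a median of 0.62; Bcap31, an ER membrane protein cleaved in apoptosis (1.00), and Tmbim6 (Bax inhibitor 1, 0.90) were higher, while the IP3 receptors Itpr1 (-1.26) and Itpr3 (-0.83) were lower. Of 35 other outer mitochondrial membrane proteins, 17 were higher and 11 lower, with a median of 0.09; the import receptor Tomm20 (0.72), the import channel Tomm40 (0.79) and the iron-sulfur protein Cisd1 (0.82) were higher. Of 16 other mitophagy genes, 10 were higher and 4 lower, with a median of 0.14; the adaptors Sqstm1 (0.32) and Nbr1 (-0.63) and the LC3 relative Gabarap (0.47) are examples. Of 18 genes of the apoptosome, caspases and their inhibitors, 4 were higher and 8 lower, with a median of -0.10. Birc6, a very large inhibitor of apoptosis, had a log2 fold of -2.21, with ER-bound libraries spread from 27.2 to 55.1 CPM. Casp2 had one of -0.57 and Diablo, which is released from mitochondria, one of 0.49. Of 20 hypoxia-inducible genes, 7 were higher and 9 lower, with a median of 0.01, among them the adenylate kinase Ak4 (-0.44), the demethylase Kdm3a (-0.43) and the collagen hydroxylase P4ha2 (0.62).

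What Lsg1 siRNA changed among these mRNAs was first read from whole-cell RNA, where no member passed. Their log2 folds ran from -0.11 for Bnip3 to 0.26 for Bcl2, with a median of -0.0027. By edgeR's quasi-likelihood test, 0% of all genes passed; at an unadjusted p under 0.05 there were 0 of 9 members and 731 of 17702 genes, and DESeq2 called 4 genes higher and 1 lower over all genes. Bnip3 read 163, 135 and 143 CPM with Lsg1 siRNA and 156, 160 and 158 CPM with scramble siRNA, so that replicate 1 lay above and the others below every control. The 95% intervals of Bak1 (-0.06 to 0.09), Bid (-0.06 to 0.08) and Mcl1 (-0.07 to 0.03) were narrow, and that of Bcl2 (-0.12 to 0.64) was wide.

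On ER-labelled ribosomes, 1 member was lower and 1 higher after Lsg1 siRNA. The mitophagy receptor Bnip3l was lower: it read 83.9, 80.1 and 83.3 CPM with Lsg1 siRNA against 96.2, 94.3 and 91.4 CPM with scramble siRNA. The groups did not overlap, and the log2 fold was -0.19 with an SE of 0.03 (edgeR adjusted p = 0.0040), 87.7% of the scramble level. This held in all 24 alternatives, with log2 folds of -0.22 to -0.18 and edgeR, DESeq2 or limma adjusted p-values of 1.39e-04 to 0.0384. The prosurvival Bcl2l1 was higher, at 53.7, 54.2 and 53.9 CPM against 48.7, 48.8 and 48.2 CPM, a log2 fold of 0.15 with an SE of 0.04 (edgeR adjusted p = 0.0307). Its groups did not overlap either, yet it failed to pass in 16 of 24 alternatives, among them 11 of the 12 that left out a single library, with adjusted p-values up to 0.162. Over all genes, 2.63% were higher and 1.38% lower in this comparison.

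The other 7 members did not pass on ER-labelled ribosomes. Bnip3 read 128, 113 and 107 CPM with Lsg1 siRNA against 137, 131 and 124 CPM, a log2 fold of -0.17 with an SE of 0.06 (edgeR adjusted p = 0.153). Its groups overlapped, and all 3 same-numbered pairs went down. With a replicate block it passed (-0.17, edgeR adjusted p = 0.0339), and the calls over all genes went from 465 higher and 245 lower to 749 and 429; whether the numbers pair these libraries depended on which genes were used for the check. It also passed with no filter on low counts (edgeR adjusted p = 9.71e-04) and without ER-bound Lsg1 replicate 1 (-0.25, edgeR adjusted p = 0.0450). Bak1 had a log2 fold of 0.10 (edgeR adjusted p = 0.132). Its groups did not overlap, nor did those of Mcl1 and of Bok, and none of these passed. Here as in the other comparisons, the share of all genes whose groups do not overlap is not given, so non-overlap alone shows no change. Mcl1 (0.04), Bid (-0.02), Bok (-0.08), Bcl2l2 (-0.09) and Bcl2 (0.13) had edgeR adjusted p-values of 0.391 to 0.836. Among the family's other genes, Bcl2l11 (0.17, edgeR adjusted p = 0.0095) and Bcl2l13 (0.17, 0.0153) were higher, Bbc3 stood at 0.15 (0.0507), and none was lower. Of the 16 other mitophagy genes, the 20 hypoxia-inducible genes and the 18 apoptosome genes, 0 passed in this comparison. Of the 9 ER partners 1 was higher, Bcap31 (0.11, edgeR adjusted p = 0.0497), with a median of 0.11 over the list, against 0.0086 over all genes. Of the 35 other outer mitochondrial membrane proteins 3 were higher, with a median of 0.03: Tomm40 (0.14, edgeR adjusted p = 0.0251), the ubiquitin ligase Mul1 (0.17, 0.0327) and the deubiquitinase Usp30 (0.16, 0.0499). Of the 10 ER markers Sec61a1 (0.13) and Pdia3 (0.12) were higher, and of the 10 pluripotent stem cell markers Nanog (-0.18) and Dppa5a (-0.11) were lower. The 5 fibroblast and 6 primitive endoderm markers tested did not pass. Mul1, Usp30 and these 4 marker genes were chosen for naming after their values were seen.

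**Figure D5:**
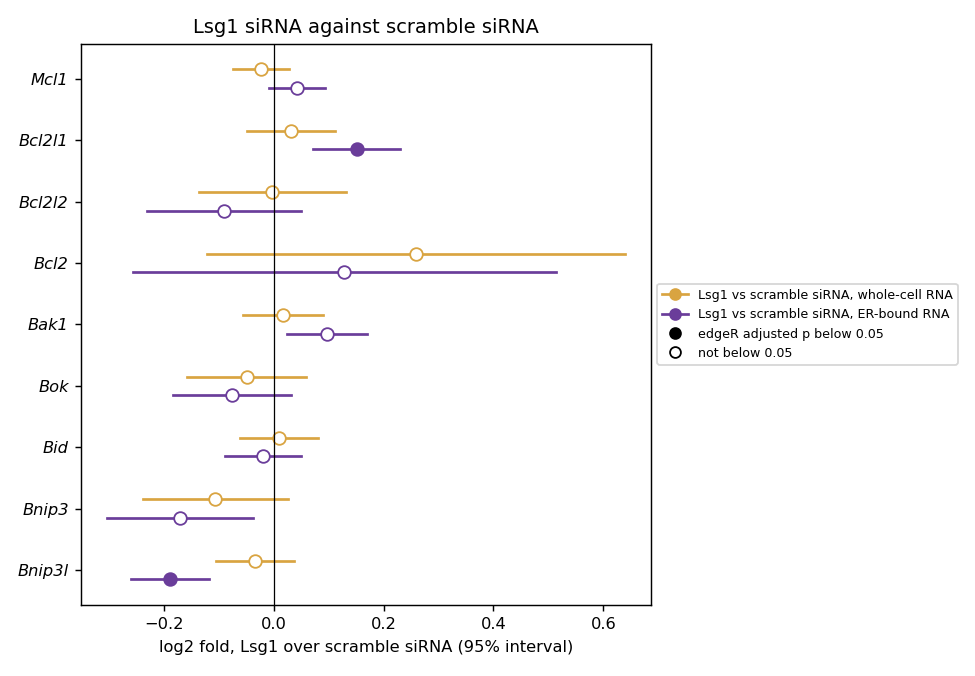
Log2 fold of Lsg1 over scramble siRNA (x axis) with its 95% interval for each member, in whole-cell RNA (yellow) and ER-bound RNA (purple); filled points have an edgeR adjusted p below 0.05. Only Bnip3l (-0.19) and Bcl2l1 (0.15) are filled, both in ER-bound RNA.

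Whether the siRNA acted differently in ER-bound and whole-cell RNA was tested by the interaction. No member passed, and 0.0226% of all genes did. Bnip3l had an interaction log2 fold of -0.15 with an SE of 0.05 (edgeR adjusted p = 0.516), and for Bcl2l1 it was 0.12 (SE 0.05, edgeR adjusted p = 0.698); these 2 members had an unadjusted p under 0.05, as had 1219 of 17702 genes. A change in ER-bound RNA that differs from that in whole-cell RNA was therefore not shown for any member. The fit did not use the lysate shared by the 2 fractions.

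The genes whose log2 CPM followed each member most closely over the 12 libraries were named from 10632 genes with at least 5 CPM on average; the libraries share fractions and lysates. For Bnip3 they were Bhlhe40, a transcriptional repressor (Pearson r = 0.988), and Egln3, a prolyl hydroxylase (0.976). For Bnip3l they were Phgdh, an enzyme of serine synthesis, and Tubb2b, a tubulin, each at 0.98. For Bak1 they were Psmd7 of the proteasome and Ndufa12 of respiratory complex I, each at 0.993. Bid was followed by Numbl (0.987) and Cbr3 (0.976), and Bcl2l2 by Zfp369 (0.980) and Wdr62 (0.972). Mcl1 was followed by Fpgt (0.915) and Mapk11 (0.915), Bok by Rnf187 (0.891) and Taf5l (0.851), Bcl2l1 by Polr2h (0.878) and Slc11a2 (0.872), and Bcl2 by Arhgef16 (0.794) and 1700066M21Rik (0.779).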

How the data were processed

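The deposited tables hold raw counts per gene in 12 libraries. Per the labels' protocols, libraries were made from 750 ng of RNA by poly-A selection with a directional kit and 9 PCR cycles, and read as paired 150 bp. Per the submitters' processing notes, the authors used STAR 2.7.9a, HTSeq 0.11.2, GRCm39 and DESeq2; neither strand setting nor annotation release is given there. The 5 summary lines per table were left out; reads in no feature were 2.65% to 5.26%. Names, lengths, GC content and coding sequences came from GENCODE M21 on GRCm38, matched by gene ID without version, so no coordinates are given; 94.0% of IDs had a name.

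Counts were scaled by TMM, filtered with filterByExpr and tested with edgeR 4.0.16 (quasi-likelihood, 4 group means, all 12 libraries, biological coefficient of variation 4.42%, 8 residual degrees of freedom) in R 4.3.3, with Benjamini-Hochberg adjustment over 17702 genes and a threshold of 0.05. The script was tested on simulated counts. P-values set a difference against the spread between replicates within groups. The 4 groups share 1 estimate of this spread, so groups outside a comparison also enter its p-value. Intervals are 95%. The members and gene lists were chosen with earlier results of these data known. Named are all members, Lsg1, every other tested family gene, up to 3 genes of each other list with the smallest p between fractions with scramble siRNA, and for each member the 2 genes of highest r; Itpr1, Itpr3, 6 list genes changed by the siRNA and the genes overlapping a member were added after their values were seen. Of the genes this rule selects, 1 is not reported here.

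Between fractions, libraries of a number and siRNA are paired by the lysate they share. The fit reported did not use this pairing. The replicate block is by number and common to both siRNAs, so lysate pairs as such were not fitted. Over the 10646 genes with at least 5 CPM, deviations of these pairs from group means correlated at 0.160, -0.0305 and 0.256 with scramble siRNA. With Lsg1 siRNA they correlated at 0.277, 0.0158 and 0.281. For the siRNA comparison in ER-bound RNA, deviations of same-numbered libraries from their group means correlated at 0.173, 0.0073 and 0.144 over all 17702 genes, and at 0.376, 0.125 and 0.322 over the 10646 genes with at least 5 CPM; at 20 CPM they were 0.418, 0.192 and 0.331. These 3 minimums were tried when the effect of the block was already known, and they disagree on whether every pair exceeds 0.1, so the fit without the block was kept and the blocked values are printed beside the result they change. In whole-cell RNA not every pair exceeded 0.1 at any of the 3 minimums. Alternatives were scaling by library totals or DESeq2 size factors, no or a stricter filter (2 CPM in 3 libraries), DESeq2 1.42.0, limma-voom (limma 3.58.1), only the groups compared, the replicate block, a GC and length offset (splines with 5 degrees of freedom), both together, removal of mitochondrial and ribosomal protein genes, each library left out, and 2 libraries left out together.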

Additional observations from a re-analysis of the deposited data

Results flagged for a closer look

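Lsg1, the target of the siRNA, differed between the fractions in its response: its ER-bound over whole-cell log2 fold was lower by 1.22 with Lsg1 than with scramble siRNA (interaction log2 fold -1.22, SE 0.15, edgeR adjusted p = 0.0013). No Bcl-2 family member passed the same test.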

How the results depend on the processing

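Of the 215 member values recomputed for ER-bound against whole-cell RNA with scramble siRNA, 196 kept their direction and side of the threshold, as did 198 of 215 with Lsg1 siRNA, 201 and 192 of 215 for the siRNA in whole-cell and ER-bound RNA, and 204 of 206 for the interaction. Among those that changed were the following. With the GC and length offset, alone and with the replicate block, 0 members were higher between the fractions with either siRNA and 6 were lower with either; Mcl1 then passed as lower with Lsg1 siRNA too (-0.0946 and -0.0947). In these 2 fits, with scramble siRNA, Bak1 came to -0.0146 and -0.0147, Bid to -0.0377 and -0.0380 and Bcl2 to 0.231 and 0.225. With Lsg1 siRNA Bcl2 came to 0.0687 and 0.0797, Bcl2l1 to -0.194 in each and Bid to -0.0688 and -0.0694; for the siRNA in whole-cell RNA Bid came to -0.0119 and -0.0118. With library totals and scramble siRNA, 2 members were lower, and Bcl2 came to 0.0043, Bcl2l1 to 0.0140 and Bok to 0.0265. With library totals and Lsg1 siRNA, 4 were higher, and Bok came to 0.0087 and Mcl1 to 0.0722. The median log2 fold over all genes was 0.11 with library totals and either siRNA. With the GC and length offset it was -0.03 with scramble and -0.04 with Lsg1 siRNA. Shares of all genes called between the fractions in these fits are not given here.

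Without the 2 libraries that stood apart, 1 member was higher with Lsg1 siRNA, Bcl2 came to 0.0567 between the fractions with scramble siRNA and to -0.0293 for the siRNA in ER-bound RNA, and in whole-cell RNA Bak1 came to -0.0048 and Bcl2l2 to 0.0056 (0.0012 with limma-voom). For the siRNA in ER-bound RNA, 0 members were higher without the 2 libraries, with the GC and length offset, without mitochondrial and ribosomal protein genes, with no low-count filter and with only the groups compared; 2 were lower with no low-count filter and with the replicate block, alone or with the offset. Leaving out single libraries gave 0 to 1 member higher and 1 to 2 lower. Over all genes that comparison called 465 higher and 245 lower, against 307 higher without the 2 libraries, 216 and 159 with only the groups compared, 749 and 429 with the replicate block, 373 lower with the offset, 671 lower with block and offset, and 161 to 463 higher and 117 to 391 lower with single libraries left out.

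In whole-cell RNA, where the fit reported called 0, the siRNA gave 3 genes higher and 1 lower without the 2 libraries, 4 and 1 by DESeq2, 24 and 2 with no filter, 1 and 1 with only the groups compared, 4 and 1 with the replicate block, 6 and 2 with block and offset, 1 higher with the offset, and 0 to 2 and 0 to 1 with single libraries left out. The interaction, with 2 and 2 as reported, gave 13 and 5 by DESeq2, 19 and 40 with no filter, 7 and 6 with the replicate block, 12 and 8 with block and offset, and 2 to 5 and 1 to 3 with single libraries left out. Leaving out single libraries moved Bcl2 between -0.249 and 0.0567 (fractions, scramble), -0.0282 and 0.278 (siRNA, ER-bound) and -0.285 and 0.0215 (interaction), and Bnip3 between -0.143 and 0.0062 (interaction). For the siRNA in whole-cell RNA it moved Bak1 between -0.0091 and 0.0485, Bcl2l1 between -0.0013 and 0.0760, Bcl2l2 between -0.0305 and 0.0306, Bid between -0.0198 and 0.0283 and Bok between -0.0868 and 0.00060. Between the fractions, Bcl2l1 passed as lower with scramble siRNA without whole-cell scramble replicate 1 (-0.112, edgeR adjusted p = 0.0335), Bok passed as lower with Lsg1 siRNA without whole-cell Lsg1 replicate 1 (-0.146, edgeR adjusted p = 0.0314), and Mcl1 lost its call with scramble siRNA with no low-count filter (-0.07, edgeR adjusted p = 0.148) and with library totals (-0.0042, edgeR adjusted p = 0.903). The cause was not tested. The tail-only class had a median of 0.23 at a hydropathy threshold of 1.8 and 0.18 with a tail of 60 residues with scramble siRNA, and 0.20 and 0.17 with Lsg1 siRNA. The replicate block alone changed the call of Bnip3 in ER-bound RNA and of no other member. Depth limits Bcl2 most among the members, with 32 to 68 reads a library.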
